A study of Mus musculus with 6 samples.

Results

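The 10 genes described here are 5 lectins of the CD209 family (*Cd209a*, *Cd209b*, *Cd209d*, *Cd209f* and *Cd209g*) and 5 genes used as markers of resident macrophages (*Cd163*, *Lyve1*, *Mrc1*, *Folr2* and *Cbr2*). They were chosen by name from 53084 genes in a count table of muscle RNA, with the difference between the genotypes in these same libraries already known, so that their fold changes are given as a description and without a test. The libraries came from the muscle of male C57BL/6 mice, 6 weeks old, kept on standard chow under specific pathogen-free conditions, with 1 library per mouse. The 3 *Tarsl2*+/+ mice (583, 584 and 595) are called WT, and the 3 *Tarsl2*-/- mice (588, 589 and 591) are called KO. In the KO mice the deletion was made with CRISPR/Cas9 and a pair of guide RNAs in the introns on either side of exon 3 of *Tarsl2*, which encodes a threonyl-tRNA synthetase. It was present in every cell, macrophages included, and the founder was crossed to C57BL/6J mice. The number of founders behind these mice was not given in the sources used here. The sample records also name retina in the extraction text, whereas the summed level of 10 retina genes was at most 0.682 CPM (reads per gene, scaled for library size) in any library and muscle genes were abundant. *Tarsl2* was measured first as a check of the labels, and fell from 27.7 ± 4.0 CPM (SD, n = 3) in WT to 1.97 ± 0.231 CPM (SD, n = 3) in KO muscle. Between 16176591 and 20123767 reads per library were counted on genes, at which depth 3 counts correspond to 0.146 to 0.187 CPM. All CPM values were scaled by the trimmed mean of log ratios between libraries (TMM).

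Tissue-resident macrophages live for long periods in the connective tissue of muscle, often along blood vessels, where they take up debris, iron-bearing proteins and microbes. Many of the receptors they use for this are lectins, proteins that bind sugars. CD209 lectins are membrane proteins with a C-type lectin domain that binds sugars, in several members mannose or fucose, on glycoproteins and microbes. The mouse carries several CD209 genes side by side, which arose by duplication. CD163 takes up complexes of haemoglobin and haptoglobin, MRC1 (CD206) is the mannose receptor, LYVE1 binds hyaluronan and also marks lymphatic vessels, FOLR2 binds folate, and CBR2 is a carbonyl reductase.

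The 5 CD209 genes lie together on chromosome 8, at chr8:3743397-4137707 of GRCm38 (mm10), a stretch of 394 kb. *Cd209a* (chr8:3743397-3748984), *Cd209d* (chr8:3871824-3878555), *Cd209b* (chr8:3917655-3926844) and *Cd209f* (chr8:4102787-4105835) are on the minus strand, and *Cd209g* (chr8:4134098-4137707) is on the plus strand. The DNA just upstream of their start sites is printed because these genes sit in 1 cluster and were all lower in KO muscle, and because a pair of them share much of it. The sequences are RefSeq's, on GRCm38.p6, read 5′ to 3′ on the strand of the gene and ending at the last base before its transcript. Capitals mark TTCCGG, the core of the sequence bound by ETS family factors (CCGGAA on the other strand), in *Cd209a* and *Cd209b*. In *Cd209f* and *Cd209g* they mark a run of 83 identical bases that holds the same TTCCGG. The stretch of *Cd209d* holds none and has no capitals.
Cd209a (chr8:3748985-3749234, minus strand): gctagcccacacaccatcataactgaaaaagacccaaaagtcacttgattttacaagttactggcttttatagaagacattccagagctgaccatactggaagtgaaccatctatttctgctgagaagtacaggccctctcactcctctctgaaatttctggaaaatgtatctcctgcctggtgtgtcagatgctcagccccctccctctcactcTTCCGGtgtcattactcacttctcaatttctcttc
Cd209b (chr8:3926845-3927091, minus strand): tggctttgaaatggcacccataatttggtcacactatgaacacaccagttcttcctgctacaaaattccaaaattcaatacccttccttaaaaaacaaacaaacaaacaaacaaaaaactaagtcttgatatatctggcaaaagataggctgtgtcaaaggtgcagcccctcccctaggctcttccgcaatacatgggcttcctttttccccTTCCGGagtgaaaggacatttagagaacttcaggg
Cd209d (chr8:3878556-3878749, minus strand): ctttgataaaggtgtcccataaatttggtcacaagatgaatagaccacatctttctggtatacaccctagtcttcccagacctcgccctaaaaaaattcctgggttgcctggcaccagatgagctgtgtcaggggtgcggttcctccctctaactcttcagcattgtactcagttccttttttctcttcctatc
Cd209f (chr8:4105836-4106014, minus strand): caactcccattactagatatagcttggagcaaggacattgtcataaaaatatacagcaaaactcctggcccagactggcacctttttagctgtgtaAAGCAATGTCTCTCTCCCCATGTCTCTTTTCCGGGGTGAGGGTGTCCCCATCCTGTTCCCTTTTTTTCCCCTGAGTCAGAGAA
Cd209g (chr8:4134486-4134651, plus strand): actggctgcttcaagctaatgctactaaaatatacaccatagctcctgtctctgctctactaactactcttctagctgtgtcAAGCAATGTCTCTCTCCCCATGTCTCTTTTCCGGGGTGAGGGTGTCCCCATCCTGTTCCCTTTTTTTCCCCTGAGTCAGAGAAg

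Aligned over 300 bases around the start site, *Cd209f* and *Cd209g* were 81.2% identical, whereas the other 9 pairs of CD209 genes were between 44.0% and 56.4% identical. The stretch printed for *Cd209g* also lies within an exon of another transcript of that gene that retains an intron. Of 10 genes, 9 had a promoter entry, and *Lyve1* had none. In windows of 300 bases (250 before and 50 after the start site) searched on both strands, CCGGAA was present in 4 of 9, all of them CD209 genes, and in 15.2% of 27025 mouse promoters. *Cd209f* and *Cd209g* hold it in their shared run of 83 bases, so their matches are not separate occurrences. TATAAA was present in 3 of 9 (*Cd209a*, *Cd209f* and *Cd209g*) and in 14.2% of all promoters, and TGCTGAC, the core of sites bound by MAF factors, in 1 of 9 (*Cbr2*) and in 4.58% of all. AGAGGAAGT, a site of the macrophage factor PU.1, was in 0 of 9 and in 1.05% of all. CCGGAA and AGAGGAAGT both hold GGAA, and the other motifs do not overlap in their letters. A match describes the letters only.

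All 10 genes had enough counts to be tested in the fit across genes, and all 10 had a lower mean in KO muscle. At an adjusted p under 0.05 (edgeR, Benjamini-Hochberg adjustment), 6 of the 10 were lower (the 5 CD209 genes and *Cbr2*) and 0 were higher (also 0 at an unadjusted p under 0.05 and by DESeq2 or limma-voom), where 1.37% of the 15075 genes tested were lower and 0.896% were higher. In 8 of the 10, every KO library was below every WT library, which was the case for 12.0% of all genes tested. Since this contrast chose the genes, nothing is read from these counts. Differences between the genes were in size. The CD209 lectins were 2.25- to 5.63-fold lower in KO muscle, and the other 5 genes 1.09- to 1.46-fold lower. In bulk tissue, fewer cells of a type and less RNA per cell cannot be told apart.

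**Figure D1:**
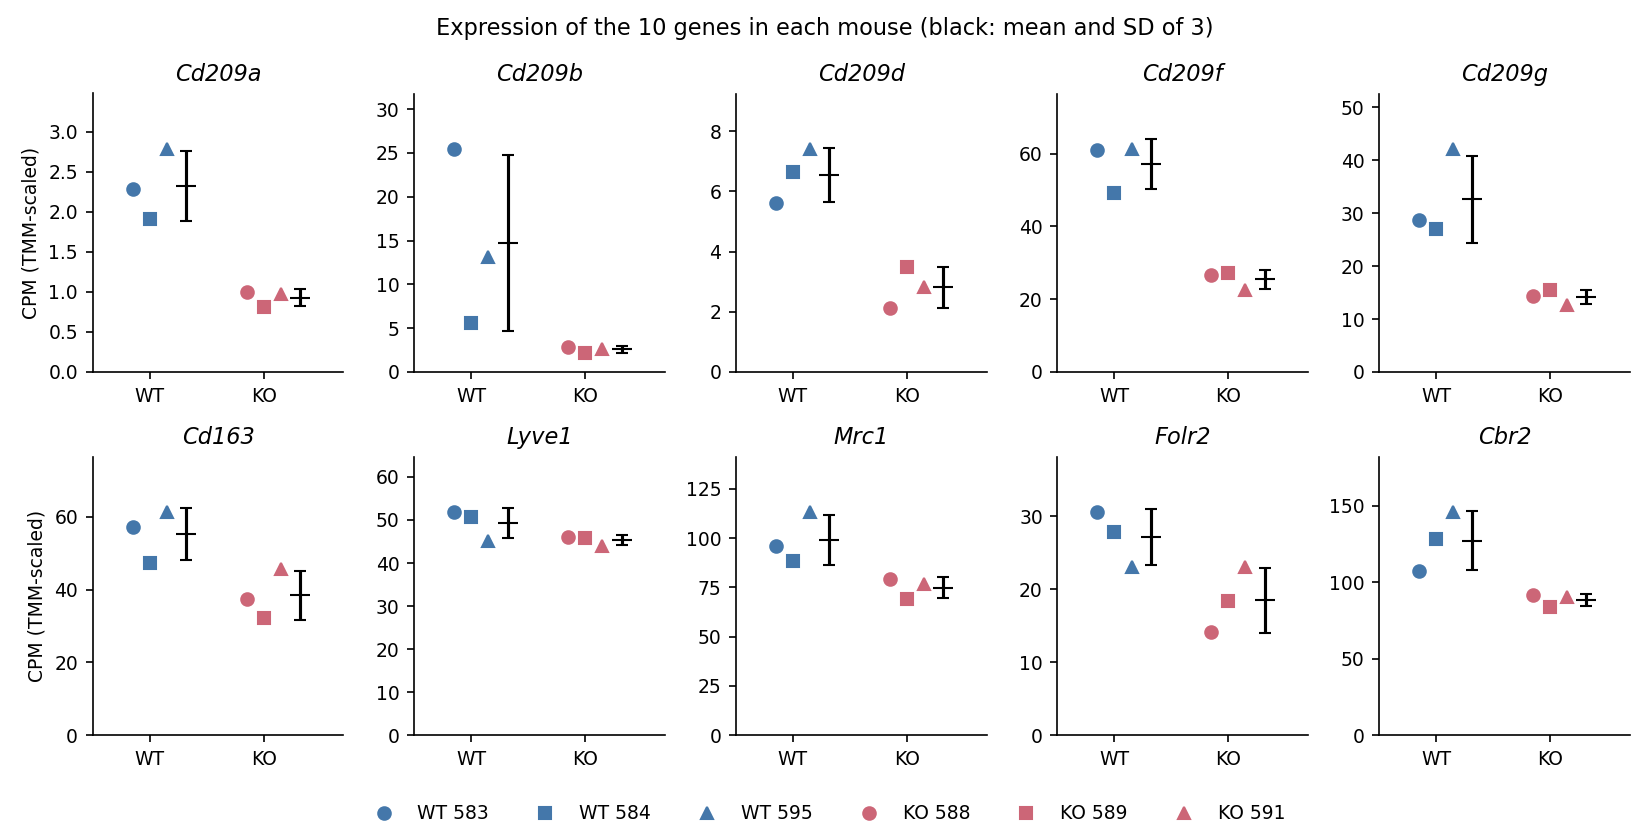
Levels of the 10 genes in each library, as TMM-scaled CPM on a separate linear axis from 0 for each gene. Blue symbols are WT mice, red symbols are KO mice, and black bars are the mean and SD of 3 mice. Only *Lyve1* and *Folr2* have a KO mouse at or above the lowest WT mouse, and *Cd209b* has by far the widest spread among WT mice, from 5.63 to 25.4 CPM.

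*Cd209f* and *Cd209g* carried most of the CD209 reads. *Cd209f* was at 61.0, 49.2 and 61.2 CPM in WT mice 583, 584 and 595 and at 26.6, 27.1 and 22.5 CPM in KO mice 588, 589 and 591. Its mean fell from 57.1 ± 6.84 to 25.4 ± 2.52 CPM (SD, n = 3), a log2 fold change (KO over WT) of -1.17 with a standard error of 0.11. Its lowest WT mouse was at 49.2 CPM and its highest KO mouse at 27.1 CPM, so that the groups stood far apart with little spread in either. *Cd209g* was at 28.6, 27.1 and 42.1 CPM in WT and at 14.3, 15.4 and 12.7 CPM in KO mice. Its mean went from 32.6 ± 8.25 to 14.2 ± 1.35 CPM (SD, n = 3), with a log2 fold change of -1.21 (SE 0.16). WT mouse 595 stood above the other WT mice, and all WT mice were above all KO mice. These genes resemble each other in sequence, and of the 100-base windows along their longest coding transcripts, 29.2% of those of *Cd209f* and 29.6% of those of *Cd209g* occur unchanged in the other. Reads from these windows could have been counted on either gene or on neither, so the split between *Cd209f* and *Cd209g* is less certain than their sum. Reads counted on neither would be missing from the sum too. The transcripts of the other CD209 genes shared no such window with any CD209 gene.

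*Cd209b* encodes the lectin SIGN-R1, known from macrophages of the splenic marginal zone and of lymph nodes. It was at 25.4, 5.63 and 13.1 CPM in WT and at 2.90, 2.18 and 2.67 CPM in KO mice. The 3 KO mice were close together, whereas the WT mice differed widely among themselves, and the lowest of them, 584, was still above every KO mouse. The log2 fold change was -2.49 (SE 0.44), between 3 mice and 3 mice. Without WT mouse 583 it was -1.85, and without WT mouse 584 it was -2.88. Hence the size of the *Cd209b* difference depended on which WT mice were included, more than for any other of the 10 genes.

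*Cd209d* and *Cd209a* had few reads. *Cd209d* was at 5.61, 6.64 and 7.40 CPM in WT and at 2.12, 3.49 and 2.82 CPM in KO mice, with a log2 fold change of -1.23 (SE 0.21). *Cd209a*, known from dendritic cells, was at 2.28, 1.91 and 2.78 CPM in WT and at 1.00, 0.811 and 0.972 CPM in KO mice. These values rest on 36 to 53 reads per WT and 13 to 20 reads per KO library, and the log2 fold change was -1.31 (SE 0.27). For both genes every KO mouse was below every WT mouse. *Cd209c* and *Cd209e*, the remaining CD209 genes of the cluster, had at most 5 counts in any library and were not tested. *Cd209e* had 3, 5 and 2 counts in WT and 0, 0 and 1 in KO mice, so that every KO mouse was below every WT mouse, though by a few reads only. *Cd209c* had 2, 0 and 4 counts in WT and 0, 2 and 1 in KO mice, which overlap.

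When the counts of the 7 CD209 genes were summed before the fit, the sum was 123, 90.8 and 127 CPM in WT and 47.0, 49.2 and 41.8 CPM in KO mice. A read counted on another CD209 gene than its own leaves this sum unchanged. A read left out of the counts because it matched more than 1 gene would be missing from it, and how such reads were handled was not given. The log2 fold change of the sum was -1.31 (SE 0.13). *Cd209f* made up between 48.2% and 56.7% of the CD209 reads in every library, *Cd209g* between 23.2% and 33.2%, *Cd209d* between 4.51% and 7.31% and *Cd209a* between 1.65% and 2.32%. *Cd209b* made up 20.6%, 6.20% and 10.3% in the WT mice and 6.17%, 4.44% and 6.39% in the KO mice.

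The other genes around the cluster differed less. Within the cluster and 250 kb on either side of it, 18 genes other than the CD209 genes were tested, and 0 of them passed the threshold in either direction by edgeR, DESeq2 or limma-voom. At an unadjusted p under 0.05, 1 was lower and 2 were higher by edgeR. Their log2 fold changes ran from -0.83 (*Ctxn1*, SE 0.34) to 0.67 (*Retn*, SE 0.29), with a median of -0.064.

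**Figure D2:**
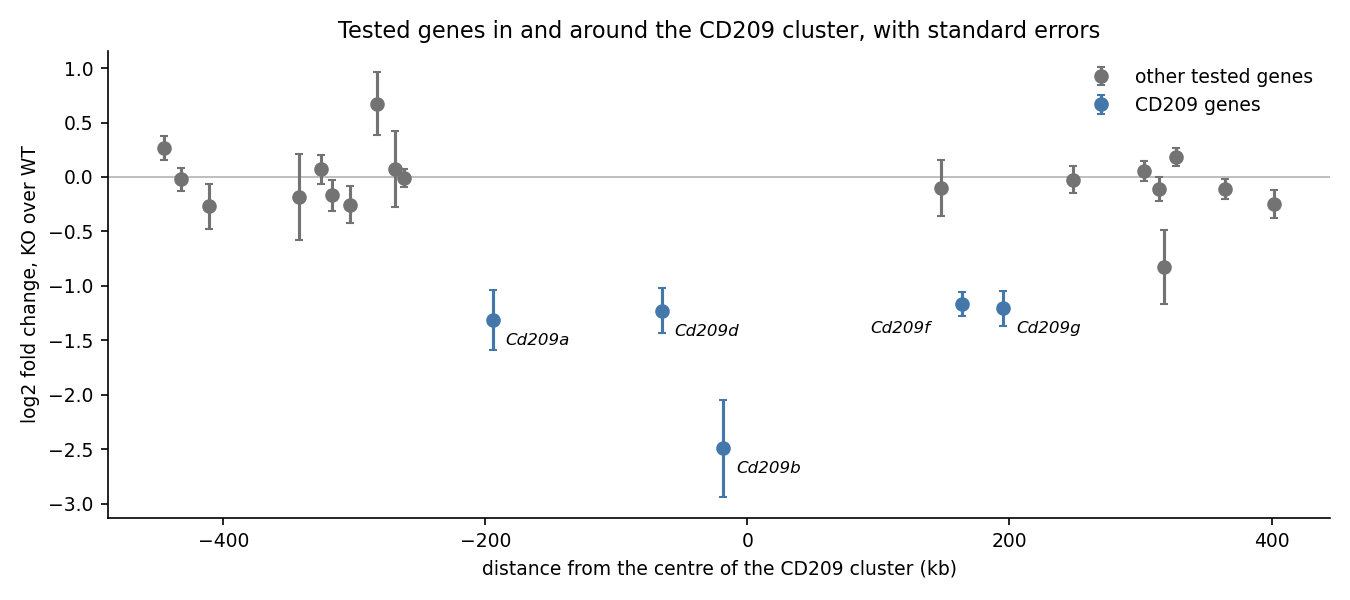
Log2 fold changes (KO over WT) of the tested genes in and around the CD209 cluster against their distance in kb from its centre, with standard errors. The 5 CD209 genes (blue) lie between -2.49 and -1.17, and the 18 other genes (grey) between -0.83 and 0.67.

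The other 5 genes differed less. *Cd163* (chr6:124304656-124330527, plus strand), the haemoglobin scavenger receptor, was at 57.3, 47.4 and 61.2 CPM in WT and at 37.5, 32.3 and 45.6 CPM in KO mice. The log2 fold change was -0.52 (SE 0.13), and the highest KO mouse, 591, came close to the lowest WT mouse without reaching it. *Mrc1* (chr2:14229392-14332057, plus strand), the mannose receptor, was at 96.1, 88.2 and 113 CPM in WT and at 79.0, 69.0 and 76.7 CPM in KO mice, with a log2 fold change of -0.40 (SE 0.10). The genotypes did not overlap here either. *Cbr2* (chr11:120729489-120732114, minus strand) was at 107, 129 and 146 CPM in WT and at 91.4, 84.0 and 90.3 CPM in KO mice, and its log2 fold change was -0.52 (SE 0.11). The KO mice were close to each other, and WT mouse 583 was nearest to them.

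*Folr2* and *Lyve1* overlapped between the genotypes. *Folr2* (chr7:101839988-101857194, minus strand) was at 30.5, 27.9 and 23.0 CPM in WT and at 14.1, 18.3 and 23.0 CPM in KO mice, a log2 fold change of -0.55 (SE 0.16). KO mouse 591 was level with WT mouse 595, and the other KO mice were below all WT mice. *Folr2* overlaps the antisense gene *Gm10602* and the pseudogene *Gm45319*, and whether strand was used in counting was not given in the sources used here, so its reads and theirs may not be told apart. *Lyve1* (chr7:110850607-110863239, minus strand) was at 51.7, 50.8 and 45.2 CPM in WT and at 46.0, 45.8 and 44.0 CPM in KO mice. Its log2 fold change was -0.12 (SE 0.086), the smallest of the 10, and WT mouse 595 was lower than 2 of the KO mice. *Lyve1* is also expressed by lymphatic endothelial cells. Their defining transcription factor *Prox1* was at 2.29 ± 0.940 CPM in WT and 2.27 ± 0.441 CPM (SD, n = 3) in KO muscle (log2 fold change -0.01, SE 0.32). This rests on 23 to 56 reads per library. Of 9 lymphatic endothelial genes tested, 6 had a log2 fold change below 0 and 3 above, from -0.59 to 0.63. *Prox1* alone is therefore no measure of the lymphatic cells in this muscle.

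Per kilobase of the longest coding transcript, so that genes can be compared, *Cbr2* had the highest level in WT muscle, at 115 ± 17.2 CPM per kb (SD, n = 3). *Cd209f* (48.2 ± 5.77) and *Cd209g* (27.9 ± 7.06) came next in WT muscle in CPM per kb, ahead of *Folr2* (22.5 ± 3.17), *Mrc1* (18.4 ± 2.36), *Lyve1* (17.0 ± 1.22) and *Cd163* (12.4 ± 1.60). *Cd209b* (7.21 ± 4.90), *Cd209d* (7.13 ± 0.977) and *Cd209a* (1.57 ± 0.295) were the lowest. The SDs of *Cd209g* and *Folr2*, of *Folr2* and *Mrc1*, of *Mrc1* and *Lyve1*, of *Cd163* and *Cd209b*, and of *Cd209b* and *Cd209d* overlap, so that the order within these pairs is not resolved. In KO muscle *Cd209f* was still second, at 21.5 CPM per kb, but the mean of *Cd209g* (12.1 ± 1.15) lay below those of *Lyve1* (15.7 ± 0.384), *Folr2* (15.4 ± 3.71) and *Mrc1* (13.9 ± 0.981), beyond the SDs for *Lyve1* and within them for *Folr2* and *Mrc1*. These ranks depend on the length used. Divided instead by the deposited gene length, the WT mean of *Cd209g* was 9.03 CPM per kb. That lay below *Folr2* (17.6), *Lyve1* (16.9), *Mrc1* (15.6) and *Cd163* (10.1), with *Cd209f* (28.7) still second. In KO muscle, by that length, *Cd209f* (12.8) lay below *Lyve1* (15.5).

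The 10 genes were then set beside other genes of macrophages, to see whether they stood lower than macrophage genes in general. These lists, like the 10 genes, were written with earlier results of these data known. Of 20 pan-macrophage genes, all of which were tested, 10 fell and 0 rose at an adjusted p under 0.05 by edgeR, and all 20 had a log2 fold change below 0, with a median of -0.59 against 0.0025 over all genes tested. The number that rose was also 0 at an unadjusted p under 0.05 and by DESeq2 or limma-voom. Those that fell included the lysozyme gene *Lyz2* (911 ± 76.9 to 493 ± 67.0 CPM, SD, n = 3, log2 fold change -0.89, adjusted p = 0.0040 by edgeR), the cathepsin gene *Ctss* (log2 fold change -0.74, adjusted p = 0.0090 by edgeR) and the receptor for the macrophage growth factor CSF1, *Csf1r* (50.4 ± 2.28 to 34.9 ± 2.92 CPM, SD, n = 3, log2 fold change -0.53, adjusted p = 0.017 by edgeR). The genes of the complement component C1q, *C1qa*, *C1qb* and *C1qc*, fell by 0.63, 0.59 and 0.60 on the log2 scale. *Fcgr3* (-0.66), *Tyrobp* (-0.59), *Adgre1*, which encodes F4/80 (-0.56), and *Laptm5* (-0.61) were the others past the threshold, with the log2 fold change in parentheses. The number that fell depended on the mice included. It was 1 without WT mouse 583, 12 without 584 and 5 without 595, and 5, 4 and 10 without KO mice 588, 589 and 591. Over all genes tested, the number lower in the same fits was 50, 383 and 56, and 97, 76 and 98. *Lyz2* passed in all 6 of these fits, and the median of the 20 genes stayed between -0.68 and -0.53. Without KO mouse 588, 19 of the 20 were below 0 and 1 was above.

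Among 20 other genes of resident macrophages, 3 fell and 0 rose by edgeR (1 was higher at an unadjusted p under 0.05, and 0 by DESeq2 or limma-voom), 18 had a log2 fold change below 0, and the median was -0.36. *Ms4a7* went from 21.4 ± 2.24 to 11.2 ± 2.29 CPM (SD, n = 3, log2 fold change -0.93, adjusted p = 0.011 by edgeR), *Fcrls* from 23.6 ± 2.67 to 14.0 ± 1.87 CPM (log2 fold change -0.75, adjusted p = 0.014 by edgeR) and *Fcna*, a ficolin that binds sugars on microbes, from 41.5 ± 5.0 to 27.8 ± 4.33 CPM (log2 fold change -0.57, adjusted p = 0.041 by edgeR). *Selenop*, the most abundant of the list, differed by -0.44 on the log2 scale (adjusted p = 0.058 by edgeR), and *Cd36*, a fatty acid transporter that muscle fibres and endothelium also express, one of 0.03. When single mice were left out the number that fell was between 0, without WT mouse 595, and 7, without WT mouse 584, with 1 without WT 583, 2 without either KO 588 or KO 589 and 3 without KO 591. Over the alternative fits, between 17 and 19 of those tested were below 0.

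**Figure D3:**
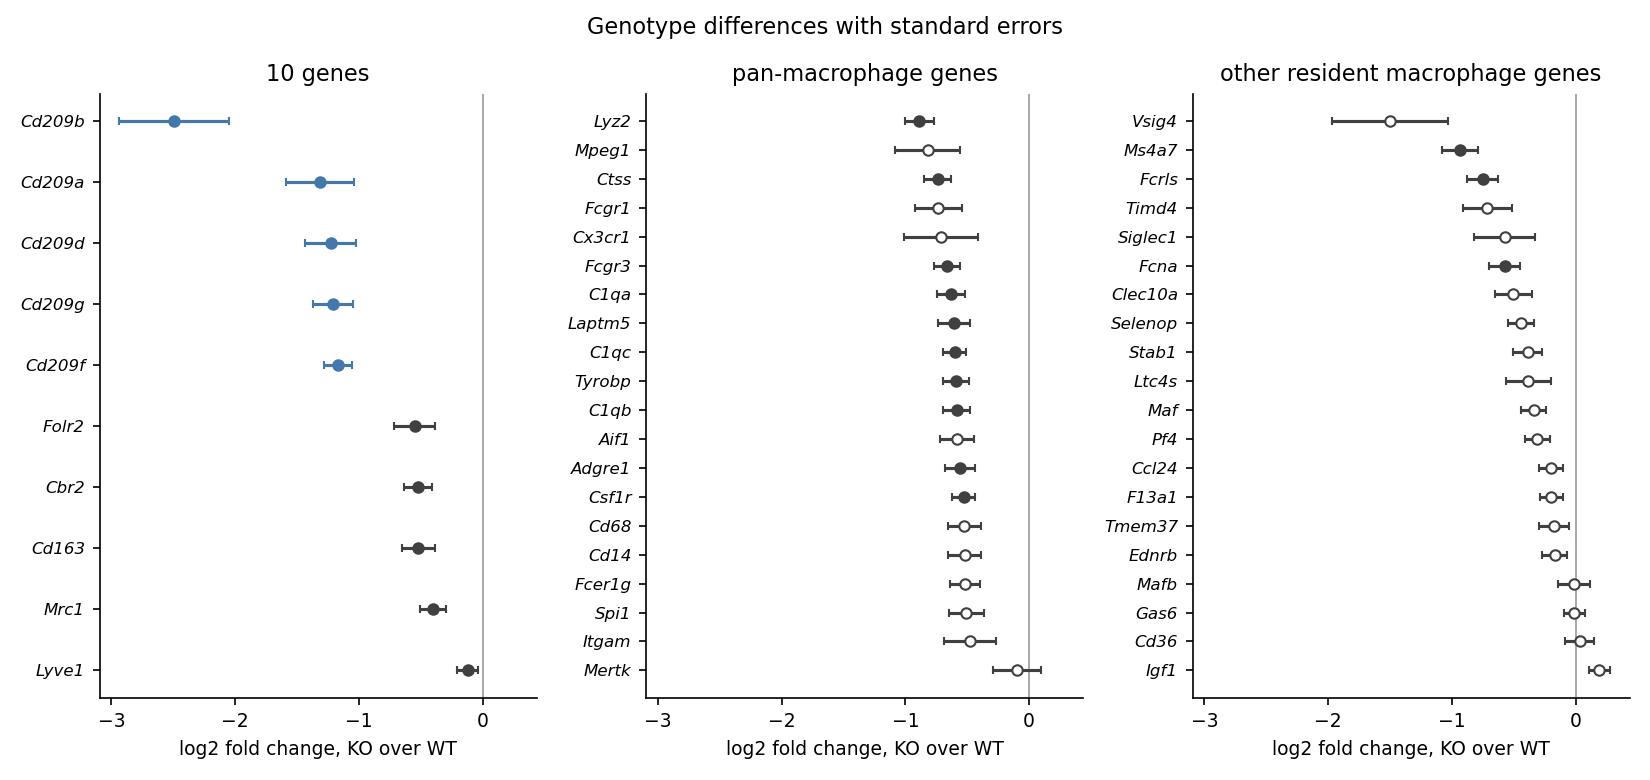
Log2 fold changes (KO over WT) with standard errors for the 10 genes, 20 pan-macrophage genes and 20 other resident macrophage genes, on 1 common axis. In the middle and right panels filled symbols mark an adjusted p under 0.05 by edgeR, and in the left panel all symbols are filled and the CD209 genes are blue. The CD209 genes lie at or beyond -1.17, whereas *Lyz2*, the lowest of the pan-macrophage genes, lies at -0.89, and *Vsig4*, at under 1 CPM, is the lowest of the other resident genes at -1.50 (SE 0.47).

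To compare the groups mouse by mouse, the log2 CPM of each gene was centred on its mean over the 6 libraries and averaged over each group. The CD209 genes were at 0.85, 0.34 and 0.90 in WT and at -0.70, -0.67 and -0.73 in KO mice, a difference of -1.40. The other 5 genes were at 0.22, 0.16 and 0.25 in WT and at -0.26, -0.29 and -0.087 in KO mice, a difference of -0.42. The pan-macrophage genes were at 0.26, 0.18 and 0.45 in WT and at -0.34, -0.43 and -0.12 in KO mice, a difference of -0.59. On this scale the CD209 genes differed by 0.80 more than the pan-macrophage genes, and the other 5 genes by 0.17 less. *Cd209b* weighs heavily in the CD209 mean. It was at 2.14, -0.0085 and 1.19 in WT and at -0.94, -1.33 and -1.05 in KO mice. In WT mouse 583 the other CD209 genes were between 0.39 and 0.68. The CD209 differences thus include *Cd209b*, whose fold change depended most on the WT mice included. For all 10 genes together the difference from the pan-macrophage genes was 0.27, 0.071 and 0.13 in WT and -0.14, -0.052 and -0.29 in KO mice, which gives -0.32 between the genotypes, and -0.22 when 6 pan-leukocyte genes took the place of the pan-macrophage genes. It ranged from -0.37 to -0.26 when each library was left out. These are descriptions of the chosen genes and were not tested.

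**Figure D4:**
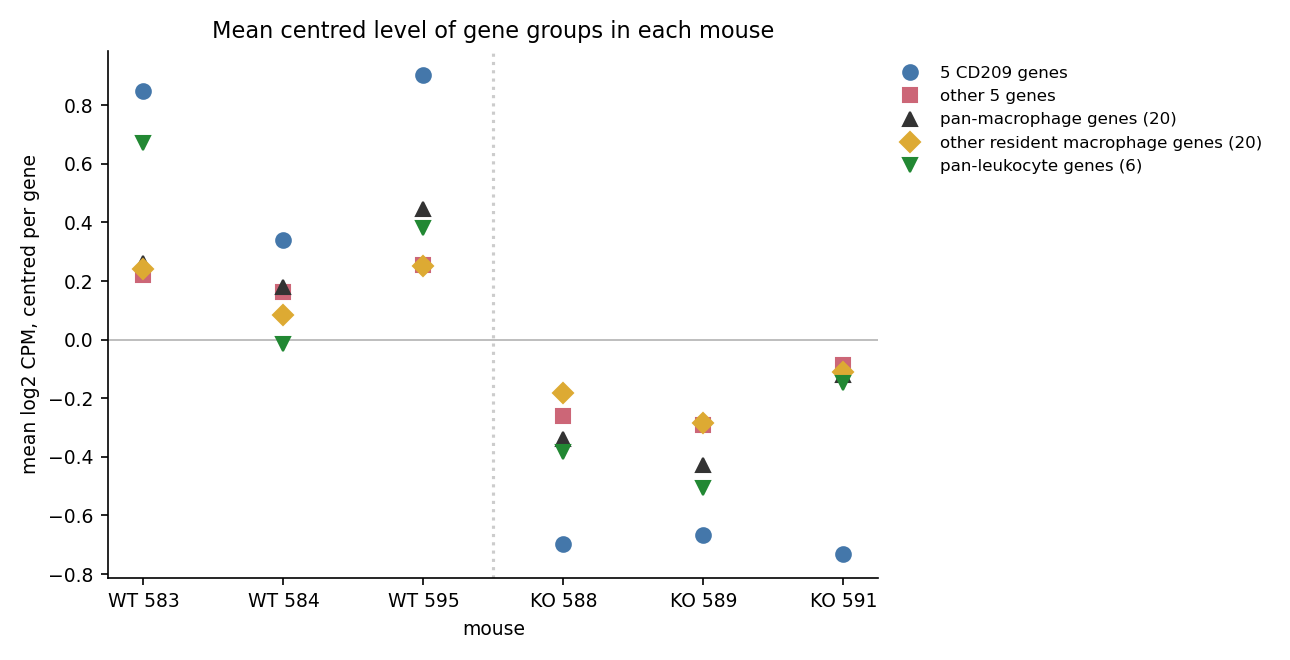
Mean centred log2 CPM of the 5 CD209 genes, the other 5 genes, 20 pan-macrophage, 20 other resident macrophage and 6 pan-leukocyte genes in each mouse, with WT mice left and KO mice right of the dotted line. The means of the CD209 genes are the highest points in every WT mouse and the lowest in every KO mouse, and KO mouse 591 is the nearest to 0 of the KO mice in the other groups. In WT mouse 583 the CD209 mean includes *Cd209b* at 2.14. The other CD209 genes there were between 0.39 and 0.68, beside 0.67 for the pan-leukocyte genes.

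Of 12440 genes outside the 10 whose mean log2 CPM was 1 or more, the 5 whose centred profile over the 6 libraries lay nearest to the mean profile of the 10 genes were *Map1a*, *Fgd2*, an unnamed transcribed region at chr5:129066760-129069189, *AC159261.1* and *Lyz2*. Their root mean square distances from it were between 0.083 and 0.095 on the log2 scale, less than those of the 10 genes themselves, which ran from 0.17 (*Cd209f*) to 0.86 (*Cd209b*). *Map1a*, which encodes a microtubule-associated protein, was at 9.76, 7.38 and 8.87 CPM in WT and at 4.46, 5.05 and 4.86 CPM in KO mice. *Fgd2*, which encodes an exchange factor for a small GTPase, was at 9.47, 8.13 and 11.2 CPM in WT and at 4.74, 5.30 and 5.64 CPM in KO mice. Profiles over 6 libraries in 2 genotypes mostly follow the genotype, and many genes lie near each other by this measure.

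Other receptors and ligands of the same pathways were counted in the same way. Of 18 other scavenger and C-type lectin receptors tested, 2 fell and 0 rose by edgeR (0 also at an unadjusted p under 0.05 and by DESeq2 or limma-voom), and the median log2 fold change was -0.35. *Clec12a*, an inhibitory receptor of myeloid cells, went from 8.67 ± 1.78 to 3.17 ± 0.923 CPM (SD, n = 3, log2 fold change -1.43, adjusted p = 0.011 by edgeR), and *Clec7a*, which encodes the beta-glucan receptor dectin-1, from 11.9 ± 1.96 to 7.02 ± 0.442 CPM (log2 fold change -0.76, adjusted p = 0.022 by edgeR). *Clec12a* passed in 5 of 6 fits without 1 mouse, all but that without WT 583, and *Clec7a* in 2 of 6, those without WT 584 and without WT 595. Of 16 macrophage growth factors, polarising signals and their receptors, 1 fell, *Csf1r*, given earlier, and the median was -0.29. *Csf1r* passed in 3 of 6 fits without 1 mouse. The growth factors of resident macrophages, *Csf1* (log2 fold change -0.40, adjusted p = 0.085 by edgeR) and *Il34* (-0.55, adjusted p = 0.092 by edgeR), did not pass. Every KO mouse was below every WT mouse for both, as for other genes of this list and for 12.0% of all genes tested. Of 14 genes of haemoglobin scavenging and iron recycling, the pathway downstream of CD163, 0 passed in either direction by edgeR, DESeq2 or limma-voom, 1 was lower and 1 higher at an unadjusted p under 0.05, and the median was -0.025. The ferritin genes *Fth1* and *Ftl1* had log2 fold changes of 0.14 and -0.18. Among 11 genes of folate uptake and use 0 passed by any of these tools (2 were lower at an unadjusted p under 0.05), with a median of -0.0075. Among 11 carbonyl reductases and genes of hyaluronan handling 0 passed, also at an unadjusted p under 0.05, and the median was 0.16, with *Cbr4* at 0.16 and *Cbr1* at 0.17.

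Markers of other cells that can express some of these genes were measured beside them. Of 9 dendritic cell genes tested, 1 fell, *Irf8* (log2 fold change -0.62, adjusted p = 0.049 by edgeR), while 1 was lower by DESeq2 and 0 by limma-voom, and the median was -0.33. Of 10 monocyte genes tested 0 passed by edgeR, 2 were lower by DESeq2, 0 by limma-voom and 7 at an unadjusted p under 0.05, with a median of -0.65. *Fn1* and *Nr4a1*, the most abundant of them, had log2 fold changes of -0.34 and 0.07. Of 9 lymphatic endothelial genes, 1 fell, *Pdpn* (log2 fold change -0.42, adjusted p = 0.045 by edgeR), 1 rose, *Tbx1* (0.63, adjusted p = 0.021 by edgeR), and the median was -0.068. By limma-voom 0 lymphatic genes were lower and 1 was higher, and by DESeq2 1 was lower and 1 higher. Among 10 blood endothelial genes *Cdh5*, which encodes VE-cadherin, fell (log2 fold change -0.64, adjusted p = 0.0093 by edgeR) and the median was -0.14. Of 10 fibroblast genes 0 passed by edgeR, 2 were lower by DESeq2, 0 by limma-voom and 3 at an unadjusted p under 0.05 (median -0.21). Of 8 mast cell genes 0 passed by any of these tools, and 1 was lower and 1 higher at an unadjusted p under 0.05 (median -0.18). Of 14 skeletal muscle genes 3 rose and 0 fell by edgeR, and 0 fell by DESeq2, by limma-voom or at an unadjusted p under 0.05. The 3 were *Actn3* (log2 fold change 0.69, adjusted p = 0.0081 by edgeR), *Myh1* (0.59, adjusted p = 0.015 by edgeR) and *Ckm* (0.49, adjusted p = 0.043 by edgeR), and the list's median was 0.25. Of 6 pan-leukocyte genes *Laptm5* and *Cd53* fell, and the median was -0.71. *Irf8*, *Pdpn*, *Ckm* and *Laptm5* each passed in 1 of the 6 fits without 1 mouse (without WT 584), *Tbx1* and *Cd53* in 2, *Myh1* in 4, and *Actn3* and *Cdh5* in 5.

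Markers of blood and lymphoid cells stood apart in WT mice 583 and 595, the mice in which *Cd209b* was highest. The summed level of 10 lymphocyte genes was 38.3, 3.56 and 9.82 CPM in WT and 3.96, 1.62 and 2.58 CPM in KO mice. That of 8 neutrophil genes was 64.6, 2.02 and 14.2 CPM in WT and 2.79, 2.18 and 4.13 CPM in KO mice. That of 7 erythrocyte genes was 7228, 4757 and 10418 CPM in WT and 4404, 4175 and 4545 CPM in KO mice. Of these lists, 2 lymphocyte, 4 neutrophil and 7 erythrocyte genes were tested and 0 passed the threshold by edgeR or limma-voom. By DESeq2, 1 lymphocyte and 1 erythrocyte gene were lower, and at an unadjusted p under 0.05 by edgeR 2 lymphocyte, 2 neutrophil and 6 erythrocyte genes were lower. The share of all genes tested at that unadjusted cut is not given here, so nothing is read from these unadjusted counts. Among the defining markers, *Ly6g* had 2 counts in WT 583 and 0 in all other libraries. That is too few to tell in which mice neutrophils were present. *Marco*, a scavenger receptor that macrophages of the splenic marginal zone carry together with SIGN-R1, was at 9.70, 0.053 and 3.20 CPM in WT and at 0.056, 0.125 and 1.65 CPM in KO mice. In WT mice *Marco*, the lymphocyte genes and the neutrophil genes thus had the same order as *Cd209b* (583, then 595, then 584). The erythrocyte genes had another order (595, then 583, then 584). *Marco* was also higher in KO mouse 591 (1.65 CPM) than in WT mouse 584 (0.053 CPM), whereas *Cd209b* was lower there. An order over 3 mice was not tested. In WT mouse 584 the lymphocyte sum lay within the range of the KO mice, the neutrophil sum below it and the erythrocyte sum above it. All 10 genes were above every KO mouse in WT mouse 583 and in WT mouse 584, and 8 were in WT mouse 595. What part these cells had in the *Cd209b* difference was not tested. Nor was their part tested in the number of pan-macrophage genes that fell, which was 1 without WT mouse 583. In that fit 50 of all genes tested were lower, against 207 with all libraries. The median log2 fold change of the pan-macrophage genes there was -0.60.

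**Figure D5:**
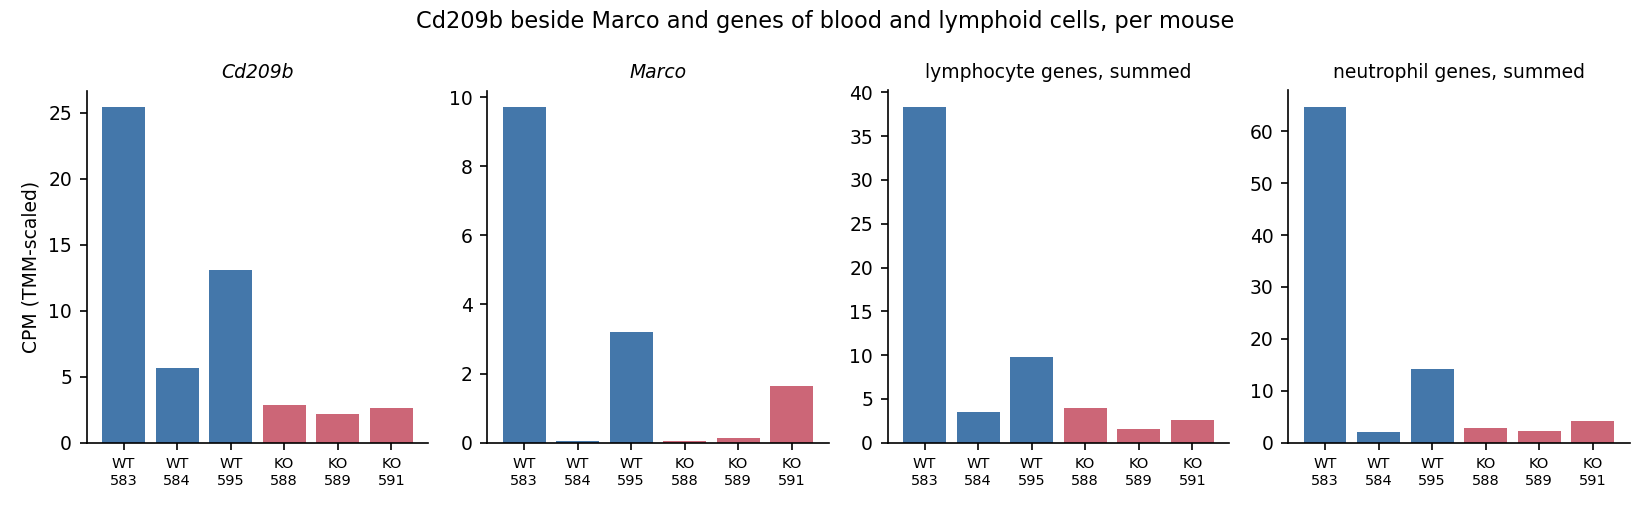
*Cd209b*, *Marco*, and the summed levels of 10 lymphocyte and 8 neutrophil genes in each mouse, in TMM-scaled CPM on linear axes from 0, with WT mice in blue and KO mice in red. WT mouse 583 is the highest and WT mouse 595 the second highest in all 4 panels, and *Cd209b* in WT mouse 584 (5.63 CPM) is still above all KO mice.

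The counts of calls among the 10 genes depended on the mice included, and the fold changes less so. The number of the 10 that passed the threshold was 5, 8 and 2 without WT mice 583, 584 and 595, and 3, 3 and 2 without KO mice 588, 589 and 591. Over all genes tested, 50, 383 and 56 were lower without these WT mice, and 97, 76 and 98 without these KO mice. *Cd209f* and *Cd209g* passed in all 6 of these fits and *Cd209d* in 4. *Cd209b* and *Cbr2* each passed in 2, and *Cd209a*, *Cd163* and *Mrc1* each in 1. *Folr2* and *Lyve1* passed in 0. Since the genes were chosen on this contrast, these counts describe the fits and are no evidence of stability. Over the fits without 1 mouse, the log2 fold change was between -1.26 and -1.09 for *Cd209f*, between -1.32 and -0.98 for *Cd209g*, between -1.40 and -1.06 for *Cd209d*, and between -1.44 and -1.16 for *Cd209a*. It was between -0.66 and -0.41 for *Cd163*, between -0.48 and -0.30 for *Mrc1*, between -0.75 and -0.39 for *Folr2*, between -0.63 and -0.42 for *Cbr2*, and between -0.18 and -0.088 for *Lyve1*. All 10 had a log2 fold change below 0 in each of these fits.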

How the data were processed

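RNA from the muscle of 3 WT and 3 KO mice was sequenced by the authors (stranded mRNA libraries, paired-end reads), who mapped the reads with HISAT2 to mm10. The submitters' processing notes instead name Bowtie 0.12.2 and mm8. The coordinates in the table were those of mm10. The counting tool, annotation and strand setting were not given in the sources used here. The authors deposited raw counts of reads per gene, in whole numbers and without normalization. Other deposited columns hold the gene's identity and position.

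Samples were grouped by the genotype in their labels. Low counts were filtered with filterByExpr (minimum count 10, minimum total 15) and libraries were scaled by TMM. The quasi-likelihood test of edgeR 4.0.16 (functions glmQLFit and glmQLFTest) was run under R 4.3.3 with no factor but genotype, with Benjamini-Hochberg adjustment over 15075 genes and a threshold of 0.05. Standard errors of log2 fold changes were derived from the F statistic. Counts at an unadjusted p under 0.05 are given without the share of all genes tested, so nothing is read from them. Log2 CPM for profiles used a prior count of 2. The common biological coefficient of variation was 12.1%. Each mouse gave 1 library, so that p-values measure the spread between mice. The procedure was tested on simulated data.

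The 10 genes, the lists and the tests were chosen with earlier results of these data known. Named were the 10 genes, *Tarsl2*, from each list every gene with an adjusted p under 0.05 and otherwise up to 2 genes with the highest mean CPM, and the 5 genes with the nearest profile. *Prox1*, *Csf1*, *Il34*, *Marco*, *Ly6g*, *Ctxn1*, *Retn* and *Vsig4* were named after their values were seen. Of the genes this rule allows, some were given only by the count of their list.

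Alternatives were DESeq2 1.42.0 (the study's tool), limma-voom (limma 3.58.1), RLE and upper quartile scaling, no filter beyond 1 count, at least 10 counts in every library, each library left out in turn, and the CD209 counts summed. The sum and profile differences, the list counts under each alternative and the neighbours of the cluster were added after the data were seen.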

Additional observations from a re-analysis of the deposited data

How the results depend on the processing

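Under RLE or upper quartile scaling and with at least 10 counts required in every library, the number of the 10 genes past the threshold stayed at 6. It was 9 with DESeq2, 5 with limma-voom and 9 with no filter beyond 1 count. By limma-voom *Cd209b* no longer passed (adjusted p = 0.074 by limma-voom). Among all genes tested limma-voom called 185 lower and 133 higher. DESeq2 called 370 genes lower and 300 higher among all genes tested, and 38 lower among the lists of other genes. Without the filter 826 genes were lower and 611 higher, and 74 lower and 8 higher among the lists, in a fit whose estimate of spread rests on many more genes with few counts. When each library was left out, between 50 and 383 genes were lower and between 31 and 242 higher, between 2 and 8 of the 10 genes were lower, and among the lists between 2 and 47 were lower and between 0 and 5 higher. The causes were not tested. The log2 fold changes of the 10 genes were below 0 under every alternative, whereas single genes of the lists changed sign, such as 1 of the 20 pan-macrophage genes without KO mouse 588. *Cd209c* and *Cd209e* had too few counts to be tested. No paired analysis was possible because no mouse number occurs in both genotypes.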
